A study of Mus musculus with 12 samples.

Results

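The small heat shock protein genes of muscle Hspb1, Hspb2, Hspb3, Hspb6, Hspb7, Hspb8 and Cryab, with Bag3, the co-chaperone gene that works with Hspb8, were examined in mouse C2C12 cells. The 8 genes were chosen by name, with earlier results of these data known. All 8 were found, among 26967 genes listed at either day and 21774 listed at both. C2C12 is a myoblast line that exits the cell cycle and fuses into myotubes in low-serum medium. The study compared RNA of cells homozygous for PGAM2-K176R, which replaces a lysine of the muscle phosphoglycerate mutase by arginine, with that of WT cells. The 4 groups of 3 libraries were mutant (KI) cells at d4 of differentiation medium, WT cells at d4, mutant cells at d0 in growth medium, and WT cells at d0. The mutant cells were 1 clone made with CRISPR-Cas9, so that clone and mutation cannot be told apart, and a table of reads per gene cannot show the substitution itself. The labels do not say whether libraries of a group came from separately grown cells, and the methods name fewer biological replicates per condition than the 3 libraries labelled, so that p-values measure the spread between libraries, which may be technical. A treatment tag calls all WT libraries undifferentiated and all mutant libraries differentiated, against the day in titles and time labels, and it was set aside.

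Small heat shock proteins are chaperones that need no ATP. They share an alpha-crystallin domain, assemble into oligomers, and hold unfolding proteins until other chaperones refold them or pass them on for degradation. Skeletal and heart muscle hold several of them, where they bind actin, desmin and filamin filaments under mechanical load. BAG3 joins HSPB8 to HSC70 and delivers damaged filamin to autophagosomes.

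Depth was 16098407 to 20748164 reads per library in mutant cells at d4, 16165803 to 19991460 in WT cells at d4, 17695434 to 19802274 in mutant cells at d0 and 20823648 to 21412560 in WT cells at d0. Of 9 myoblast identity genes, among them Myod1 and Des, 0 were at 0 in all libraries of a group. Pax7, however, had only 2 reads in mutant cells at d0, a mean of 0.00632 FPKM, against 3.16 FPKM in WT cells. Levels below are FPKM (read pairs scaled to gene length and library size), as deposited, and can be set beside each other between genes. FPKM of the 2 days were scaled separately, so days were compared on reads only. In bulk RNA, fewer cells that express a gene and less of its RNA per cell cannot be told apart.

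Promoters of 6 of the 8 genes were matched in RefSeq (GRCm38.p6, 250 bases before to 50 after the start of transcription, 7 promoters in all, 2 of them of Hspb6). Cryab and Hspb2 were not matched. Those of the 3 genes with the largest differences between genotypes at d4, and of Hspb1, the most abundant gene, are printed 5′ to 3′ to show the letters behind the matches counted next. Capitals mark matches, on either strand, to the heat shock element core GAANNTTC, the E-box CANNTG that myogenic factors bind, the MEF2 motif and TATAAA.
Hspb7, chr4:141420529-141420828, plus strand: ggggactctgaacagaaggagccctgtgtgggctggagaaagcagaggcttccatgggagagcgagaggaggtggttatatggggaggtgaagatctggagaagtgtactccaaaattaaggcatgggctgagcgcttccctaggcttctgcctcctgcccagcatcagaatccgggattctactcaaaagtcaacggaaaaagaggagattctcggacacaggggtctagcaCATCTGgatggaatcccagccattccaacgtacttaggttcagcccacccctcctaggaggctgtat
Hspb3, chr13:113663627-113663926, minus strand: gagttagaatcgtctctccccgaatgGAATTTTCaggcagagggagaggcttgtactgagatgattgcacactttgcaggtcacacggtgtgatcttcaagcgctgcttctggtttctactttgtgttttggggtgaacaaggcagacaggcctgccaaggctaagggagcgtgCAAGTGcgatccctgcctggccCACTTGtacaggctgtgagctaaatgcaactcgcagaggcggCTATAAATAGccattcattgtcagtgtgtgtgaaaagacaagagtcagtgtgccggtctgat
Hspb8, chr5:116422815-116423114, minus strand: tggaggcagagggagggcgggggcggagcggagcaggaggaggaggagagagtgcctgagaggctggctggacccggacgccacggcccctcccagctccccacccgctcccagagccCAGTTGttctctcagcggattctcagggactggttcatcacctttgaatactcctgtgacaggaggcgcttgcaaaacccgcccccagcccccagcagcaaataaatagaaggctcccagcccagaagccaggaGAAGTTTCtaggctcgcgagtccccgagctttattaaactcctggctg
Hspb1, chr5:135887669-135887968, plus strand: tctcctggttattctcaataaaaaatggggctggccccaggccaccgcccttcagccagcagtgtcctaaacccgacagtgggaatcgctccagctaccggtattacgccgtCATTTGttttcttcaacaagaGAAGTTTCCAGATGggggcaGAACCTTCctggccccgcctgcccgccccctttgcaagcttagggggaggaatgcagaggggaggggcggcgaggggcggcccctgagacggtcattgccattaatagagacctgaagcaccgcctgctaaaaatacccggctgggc
The letters GAANNTTC occurred at 2 places in the Hspb1 promoter and at 1 each in those of Hspb3, Hspb8, Bag3 and, for Hspb6, its second promoter, and were in 7.86% of all 32851 promoters. The same 8 bases, GAAGTTTC, stood in Hspb1, 117 bases before the start, in Hspb6, 120 bases before it, in Hspb8, 2 bases after it, and in Bag3, 42 bases after it. These letters, looked for after the matches were seen, were in 1.21% of all promoters. The other phase of the element, TTCNNGAA, present in 8.52% of all promoters, and the CArG box, in 1.63%, were matched in 0 of the 7. E-boxes were matched 2 times each in Hspb1 and Hspb3 and 1 time each in Hspb7 and Hspb8, against 72.31% of all promoters, and the variant CAGCTG, in 16.3% of all, in 0 of the 7. In Hspb1 an E-box, 109 bases before the start, directly follows GAAGTTTC and shares no base with it. Hspb3 held the single MEF2 match, 12 bases before its start, a motif in 0.56% of all promoters, and its TATAAA lies inside this match. TATAAA was also in the second promoter of Hspb6 and in 13.62% of all. A match is a description of the letters and does not show that a factor binds there.

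At d4, 4 of the 8 genes were lower in mutant than in WT cells (Hspb7, Hspb3, Hspb8 and Hspb2) and 0 were higher by limma. A gene counts as higher or lower here if its p, adjusted by Benjamini-Hochberg, is under 0.05 and its log2 fold change is above 1 in size. Over all 13252 genes tested, 5.98% were lower and 1.76% higher. The median log2 fold change of the 8 genes was -0.59, against 0.00 over all genes tested. This median falls in a gap between Hspb2 (-1.28) and Hspb6 (0.10), where no gene of the 8 lay. At an unadjusted p under 0.05, 3 genes were higher and 4 lower, a bar that 60.8% of all genes tested passed. On reads, edgeR and DESeq2 each called 0 of the 8 higher and 4 lower. The background was wider there, with 10.8% lower and 5.09% higher of 14175 genes in edgeR, and 7.10% lower and 2.78% higher of 24787 in DESeq2. Hspb3 would not have passed the filter on low values without the WT libraries.

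Hspb7 encodes a small heat shock protein of heart and skeletal muscle that binds filamin C. It lies on the plus strand of chromosome 4, from 141420779 to 141425311 (mm10). At d4 its levels were 1.98, 1.93 and 2.18 FPKM in mutant cells, against 66.3, 67.0 and 62.3 FPKM in WT cells. All mutant libraries lay far below all WT libraries, and the 32.1-fold lower mean in mutant cells rested on 327 reads there and 9849 in WT cells. The log2 fold change was -4.45 ± 0.05 (SE, adjusted p = 4.67e-09, limma on log2(FPKM + 1)), a scale that understates changes of low genes, and -5.00 in edgeR on reads. At d0 Hspb7 was close to silent in both genotypes, with 0.221, 0.475 and 0.374 FPKM in mutant cells against 0.243, 0.323 and 0.405 FPKM in WT cells, and the groups overlapped. The log2 fold change there was 0.11 ± 0.36 (SE, adjusted p = 0.822, edgeR), from 54 and 59 reads, and its sign turned without mutant replicate 2 (-0.15) or WT replicate 1 (-0.024).

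Hspb3 and Hspb2 encode partners that form a joint oligomer in muscle. Hspb3 (chromosome 13, 113662896 to 113663676, minus strand) had 0.570, 0.118 and 0.232 FPKM in mutant cells at d4, against 14.0, 12.2 and 17.3 FPKM in WT cells. These levels came from 14 reads in mutant and 610 in WT libraries, which after scaling by library totals is a 44.0-fold lower count in mutant cells, with a 95% interval of 26.0 to 81.0 that covers counting error only. Hspb3 fell by 3.57 ± 0.16 on the log2(FPKM + 1) scale (SE, adjusted p = 1.96e-06, limma). At d0 only 1 read was found in mutant and 1 in WT libraries, and the gene was not tested.

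Hspb2 encodes a protein first known for binding the myotonic dystrophy kinase DMPK. Its levels at d4 were 20.7, 21.0 and 22.5 FPKM in mutant cells against 51.4, 48.4 and 60.7 FPKM in WT cells. The groups did not overlap, and the mean was 2.50-fold lower in mutant cells (log2 fold change -1.28 ± 0.08 SE, adjusted p = 1.34e-05, limma). At d0 Hspb2 had 5.13, 5.61 and 7.11 FPKM in mutant cells against 8.95, 8.52 and 7.42 FPKM in WT cells, a log2 fold change of -0.50 ± 0.17 (SE, adjusted p = 0.0321, edgeR) that is under the fold threshold. Hspb2 (minus strand, 50751078 to 50752354 of chromosome 9) overlaps Cryab (plus strand, 50751325 to 50756636) over 1030 bp. Their exons share 252 bp, or 30.22% of the exon length of Hspb2 and 17.04% of that of Cryab. Because it is not known whether strand was used in counting, the split of reads between these genes is uncertain.

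Hspb8, partner of BAG3 in the complex that clears damaged filamin, differed in opposite directions on the 2 days. At d4 it had 53.2, 51.2 and 54.6 FPKM in mutant cells against 133, 136 and 137 FPKM in WT cells, a log2 fold change of -1.34 ± 0.03 (SE, adjusted p = 1.55e-07, limma). At d0 it had 52.6, 64.3 and 61.4 FPKM in mutant cells against 40.7, 33.4 and 32.2 FPKM in WT cells, with every mutant library above every WT library. The d0 log2 fold change of 0.72 ± 0.11 (SE, adjusted p = 3.35e-04, edgeR) is under the fold threshold. Hspb8 occupies 116408491 to 116422864 of chromosome 5, minus strand.

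Bag3 (chromosome 7, 128523616 to 128546981, plus strand), whose product ties HSPB8 to HSC70, had small differences between genotypes on both days. It had 64.4, 60.5 and 67.7 FPKM in mutant cells at d4 against 47.9, 53.5 and 52.5 FPKM in WT cells. At d0 it had 39.6, 51.6 and 47.2 FPKM in mutant cells at d0 against 39.2, 33.4 and 31.7 FPKM in WT cells. The mutant libraries were above the WT libraries on each day by small margins. The log2 fold changes, 0.32 ± 0.06 at d4 (SE, adjusted p = 0.00267, limma) and 0.39 ± 0.11 at d0 (SE, adjusted p = 0.0180, edgeR), were under the fold threshold.

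**Figure D1:**
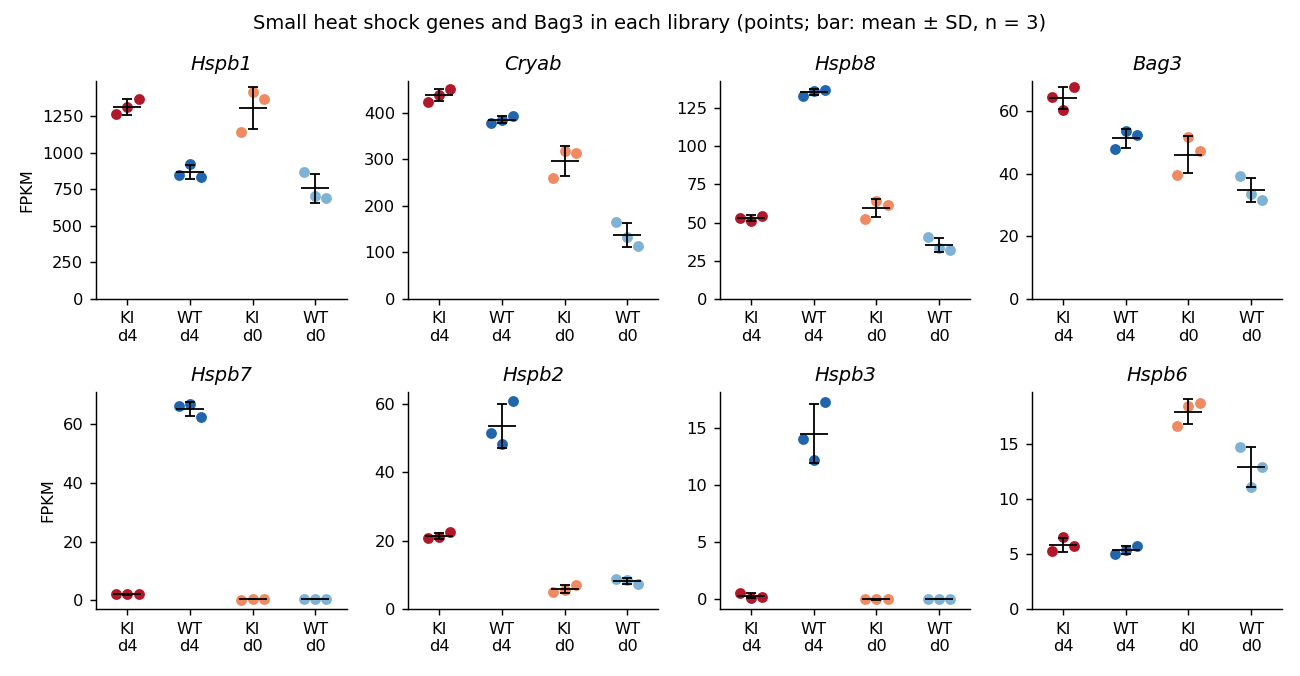
FPKM (vertical axis, linear, 1 panel per gene) in each of the 3 libraries of mutant cells at d4 (KI d4), WT d4, mutant d0 (KI d0) and WT d0. Points are libraries and bars the mean ± SD; FPKM of the days were scaled separately, so heights compare genotypes within a day. At d4 Hspb7 stands at 1.93 to 2.18 FPKM in mutant cells against 62.3 to 67.0 FPKM in WT cells, and Hspb1 is higher in mutant than in WT cells on both days.

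Hspb1 and Cryab, the most abundant of the 8 genes in every group, were at higher levels in mutant cells. HSPB1 (HSP27) is an actin-associated chaperone found in most cells, and alphaB-crystallin, encoded by Cryab, is a lens protein that also protects desmin filaments in muscle. Hspb1 (chromosome 5, 135887919 to 135889563, plus strand) had 1264, 1314 and 1372 FPKM in mutant cells at d4 against 851, 927 and 836 FPKM in WT cells. At d0 it had 1146, 1414 and 1368 FPKM in mutant cells against 872, 706 and 690.0 FPKM in WT cells. Mutant libraries were thus above WT libraries throughout. The log2 fold changes were 0.60 ± 0.05 at d4 (SE, adjusted p = 6.61e-05, limma) and 0.77 ± 0.12 at d0 (SE, adjusted p = 3.13e-04, edgeR), both under the fold threshold.

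Cryab was the single gene of the 8 past both thresholds at d0, where 1 of the 7 genes tested was higher and 0 were lower in mutant cells. Over all 13920 genes tested at d0 by edgeR, 3.03% were higher and 9.21% lower. At an unadjusted p under 0.05, 5 of the 7 were higher and 1 lower, a bar passed by 52.1% of all genes tested. DESeq2 also called 1 higher and 0 lower. The median log2 fold change of the 7 was 0.45, against -0.02 over all genes tested. Cryab had 260, 317 and 313 FPKM in mutant cells at d0 against 164, 132 and 114 FPKM in WT cells, a log2 fold change of 1.10 ± 0.13 (SE, adjusted p = 5.05e-05, edgeR). Without WT replicate 3, the lowest, it was 0.98 (adjusted p = 2.81e-04, edgeR), which is under the fold threshold. At d4 the levels lay closer together, at 424, 438 and 451 FPKM in mutant cells against 378, 385 and 392 FPKM in WT cells (log2 fold change 0.19 ± 0.04 SE, adjusted p = 0.00334, limma).

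Hspb6 encodes HSP20, known for its part in smooth muscle relaxation. It had 5.31, 6.54 and 5.71 FPKM in mutant cells at d4 against 5.00, 5.39 and 5.75 FPKM in WT cells, and these groups overlapped (log2 fold change 0.10 ± 0.08 SE, adjusted p = 0.329, limma). At d0 it had 16.6, 18.4 and 18.7 FPKM in mutant cells against 14.7, 11.1 and 12.9 FPKM in WT cells, a log2 fold change of 0.45 ± 0.11 (SE, adjusted p = 0.00799, edgeR) under the fold threshold. Hspb6 (chromosome 7, 30552178 to 30555443, plus strand) shares 122 exon bp with Proser3, 77 with Gm38670 and 3 with Lin37.

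**Figure D2:**
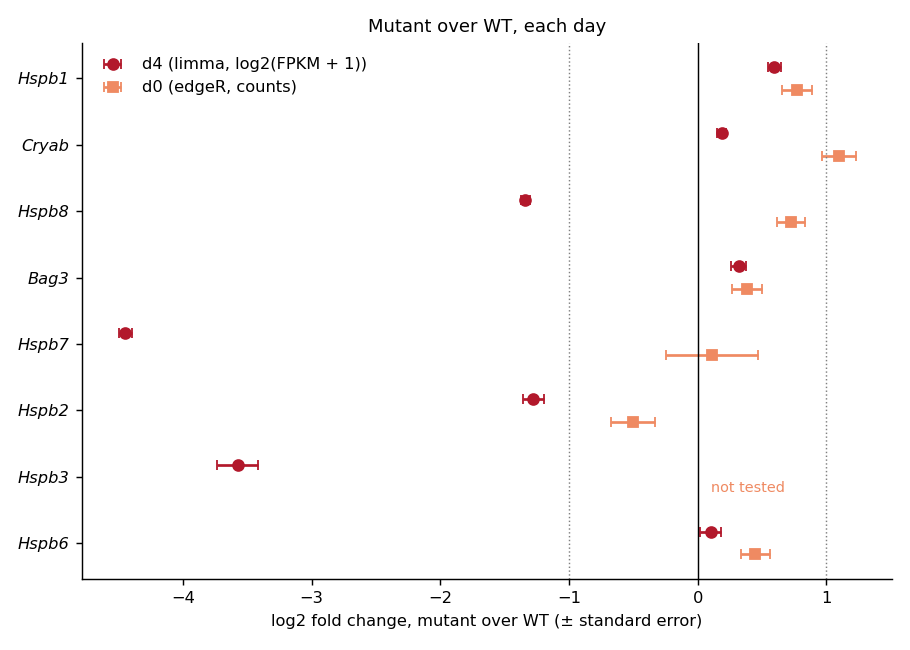
Log2 fold change of mutant over WT cells (horizontal axis) for each of the 8 genes, at d4 (circles, limma on log2(FPKM + 1)) and d0 (squares, edgeR on counts), with bars of ± 1 standard error and dotted lines at the fold threshold. Hspb7, Hspb3, Hspb8 and Hspb2 lie beyond the left line at d4, Cryab alone lies beyond the right line at d0, and Hspb8 changes side of 0 between the days.

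The next comparison asked how differentiation moved these genes in each genotype. In WT cells 5 of the 8 genes rose between d0 and d4 (Hspb3, Hspb7, Hspb2, Hspb8 and Cryab) and 1, Hspb6, fell, by edgeR, against 12.6% higher and 13.0% lower over all 14336 genes tested. In mutant cells 2 of the 7 genes tested rose (Hspb7 and Hspb2) and 1, Hspb6, fell, against 17.3% higher and 17.1% lower over all 13755 genes tested. The median log2 fold change was 0.54 over the 7 genes in mutant cells (-0.01 over all genes tested) and 1.78 over the 8 in WT cells (-0.03 over all). Hspb3 passed the filter in WT cells through the d4 libraries alone. These comparisons share their libraries with those between genotypes.

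Levels between days are CPM (reads scaled to library size, here after TMM normalization of all libraries), given as mean ± SD of 3 libraries. Hspb7 had 5.76 ± 0.37 CPM at d4 against 0.978 ± 0.344 CPM at d0 in mutant cells, and 185 ± 6.53 CPM at d4 against 0.883 ± 0.218 CPM at d0 in WT cells. The log2 fold change was 2.56 ± 0.26 in mutant cells (SE, adjusted p = 1.51e-07, edgeR) and 7.70 ± 0.14 in WT cells (SE, adjusted p = 1.66e-16, edgeR). Hspb7 thus rose in both genotypes, and its rise was smaller in mutant cells by 5.16 ± 0.32 on the log2 scale (SE, adjusted p = 1.64e-10, edgeR interaction over all 12 libraries).

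For Hspb8 the day made a difference in WT cells alone by these thresholds, and the difference between genotypes was itself tested. It had 106 ± 3.23 CPM at d4 against 115 ± 10.7 CPM at d0 in mutant cells, a log2 fold change of -0.11 ± 0.08 (SE, adjusted p = 0.227, edgeR). In WT cells it had 271 ± 5.16 CPM at d4 against 68.1 ± 8.96 CPM at d0, a rise of 2.00 ± 0.09 on the log2 scale (SE, adjusted p = 1.12e-11, edgeR). The mutant log2 fold change minus that of WT cells was -2.12 ± 0.12 (SE, adjusted p = 6.78e-11, edgeR). Hspb7 and Hspb8 were the 2 of 8 genes past both thresholds in this interaction test, both lower, against 7.95% lower and 8.68% higher over all 15114 genes tested. By edgeR 0 were higher, also at an unadjusted p under 0.05 and in DESeq2, and 6 were lower at that p, which 51.8% of all genes tested passed. DESeq2 called 3 lower, Hspb3 being the third.

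Hspb3 had 610 reads at d4 against 1 at d0 in WT cells, a read ratio of 697 with a 95% counting interval of 125 to 27561. In mutant cells it had 14 reads at d4 against 1 at d0, a ratio of 13.8 (interval 2.10 to 583), and edgeR's filter left it untested. Its interaction, -5.73 ± 2.68 (SE, adjusted p = 0.0897, edgeR), missed the threshold. Mutant replicate 1 at d4 held 9 of the 14 reads, and without it the interaction was -6.57 (adjusted p = 0.0493, edgeR).

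Hspb2 had 18.3 ± 0.81 CPM at d4 against 4.92 ± 0.81 CPM at d0 in mutant cells, and 45.8 ± 5.65 CPM at d4 against 6.82 ± 0.66 CPM at d0 in WT cells. It rose by 1.91 ± 0.14 in mutant and 2.75 ± 0.13 in WT cells on the log2 scale (SE, adjusted p = 2.52e-09 and 1.53e-11, edgeR), and the interaction of -0.85 ± 0.19 (SE, adjusted p = 0.00107, edgeR) was under the fold threshold. Its neighbour Cryab had 663 ± 21.5 CPM at d4 against 436 ± 41.6 CPM at d0 in mutant cells, and 584 ± 13.6 CPM at d4 against 199 ± 37.7 CPM at d0 in WT cells. The log2 fold changes of Cryab were 0.62 ± 0.08, under the fold threshold, in mutant cells and 1.56 ± 0.10 in WT cells (SE, adjusted p = 1.81e-06 and 1.94e-09, edgeR). Its interaction was -0.95 ± 0.14 (SE, adjusted p = 2.43e-05, edgeR), and passed the fold threshold without mutant replicate 1 at d0 (-1.03) or without WT replicate 1 at d0 (-1.10).

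Hspb6 ran the other way in both genotypes. It had 13.8 ± 1.52 CPM at d4 against 40.9 ± 2.07 CPM at d0 in mutant cells, and 12.7 ± 0.94 CPM at d4 against 29.3 ± 4.13 CPM at d0 in WT cells. Hspb6 fell by 1.55 ± 0.10 in mutant and by 1.20 ± 0.12 in WT cells on the log2 scale (SE, adjusted p = 8.36e-10 and 3.97e-07, edgeR). Bag3 had log2 fold changes of 0.54 ± 0.09 in mutant and 0.63 ± 0.09 in WT cells, and Hspb1 of 0.07 ± 0.08 in mutant and 0.27 ± 0.09 in WT cells (SE, edgeR), all under the fold threshold. The interactions of Hspb6 (-0.36, adjusted p = 0.0858), Hspb1 (-0.21, adjusted p = 0.198) and Bag3 (-0.10, adjusted p = 0.574) did not pass either threshold in edgeR.

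**Figure D3:**
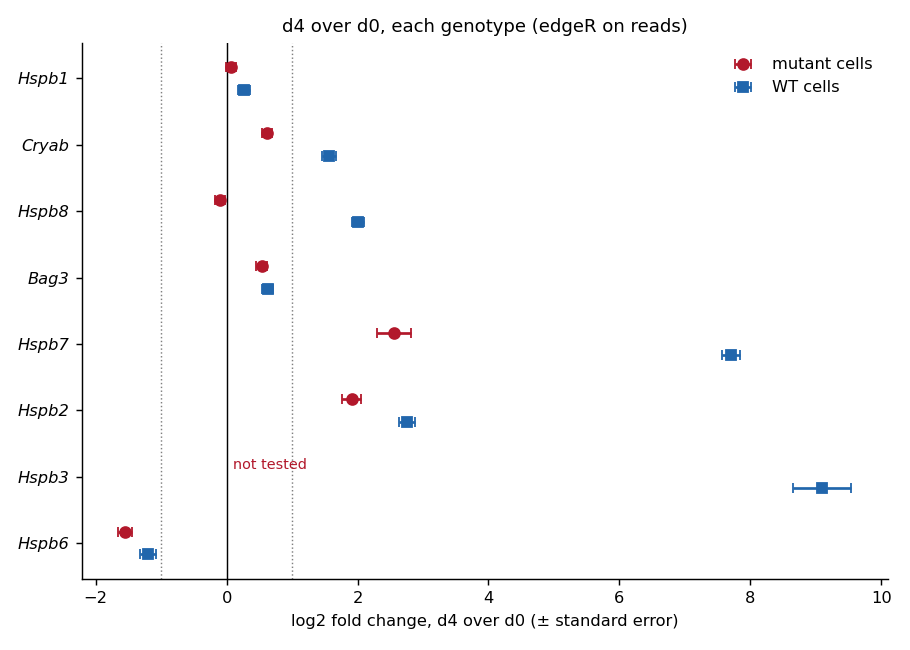
Log2 fold change of d4 over d0 (horizontal axis, edgeR on reads) for each of the 8 genes in mutant cells (circles) and WT cells (squares), with bars of ± 1 standard error and dotted lines at the fold threshold. Hspb7 lies at 2.56 in mutant and 7.70 in WT cells, Hspb8 at -0.11 and 2.00, and Hspb6 alone lies beyond the left line, in both genotypes.

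The order of levels within a library also differed between groups. In mutant cells at d4 it ran Hspb1, Cryab, Bag3, Hspb8, Hspb2, Hspb6, Hspb7 and Hspb3, with no overlap of neighbours. In WT cells at d4 it ran Hspb1, Cryab, Hspb8, Hspb7, Hspb2, Bag3, Hspb3 and Hspb6, where the ranges of Hspb2 and Bag3 overlapped. At d0 both genotypes had the order Hspb1, Cryab, Hspb8, Bag3, Hspb6, Hspb2, Hspb7 and Hspb3, with Hspb8 and Bag3 overlapping in WT cells.

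Summed over the 8 genes, levels were 1902 ± 71.2 FPKM in mutant cells at d4 against 1582 ± 46.1 FPKM in WT cells. At d0 the sum was 1736 ± 189 FPKM in mutant cells at d0 against 985 ± 136 FPKM in WT cells (SD, n = 3 each). Hspb1 alone made up 69.2% of the sum in mutant cells at d4 against 55.1% in WT cells, and 75.4% in mutant cells at d0 against 76.8% in WT cells. The sum without Hspb1 and Cryab was 147 ± 5.84 FPKM in mutant cells at d4 against 325 ± 9.28 FPKM in WT cells, whereas at d0 it was 130 ± 13.8 FPKM in mutant cells at d0 against 91.8 ± 10.5 FPKM in WT cells. All mutant libraries were above all WT libraries in the sum over the 8 genes on both days, whereas without Hspb1 and Cryab they were below the WT libraries at d4 and above them at d0.

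Ratios within a library compare partners without regard to scaling between libraries. Hspb8 over Bag3 was 0.826 ± 0.020 in mutant cells at d4 against 2.65 ± 0.12 in WT cells, and 1.29 ± 0.04 in mutant cells at d0 against 1.02 ± 0.02 in WT cells. Cryab over Hspb2, its neighbour on the opposite strand, was 20.5 ± 0.38 in mutant cells at d4 against 7.25 ± 0.75 in WT cells, and 50.4 ± 6.27 in mutant cells at d0 against 16.4 ± 1.70 in WT cells. Exons of Cryab and Hspb2 overlap, so the split of reads behind this ratio is uncertain. In each of these 4 comparisons the groups did not overlap, and the exact two-sided permutation p was 0.1 (0.1 after Benjamini-Hochberg adjustment), the smallest that 3 against 3 libraries allow.

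**Figure D4:**
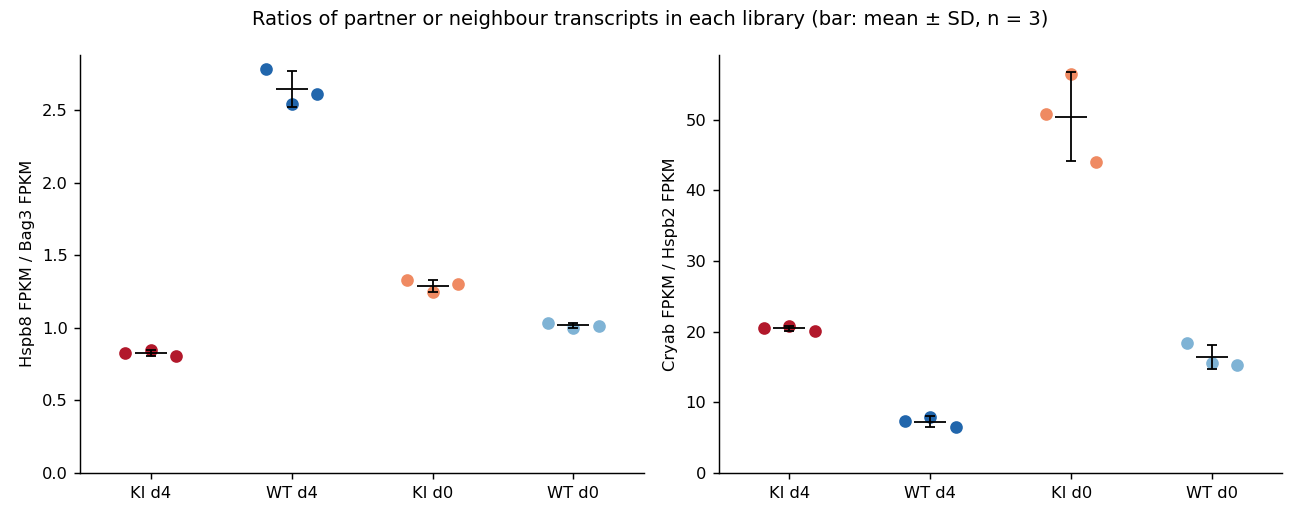
Ratio of Hspb8 to Bag3 FPKM (left panel) and of Cryab to Hspb2 FPKM (right panel) in each library of mutant cells at d4 (KI d4), WT d4, mutant d0 (KI d0) and WT d0. Points are libraries and bars the mean ± SD; at d4 Hspb8 over Bag3 averages 0.826 in mutant cells against 2.65 in WT cells, and Cryab over Hspb2 is higher in mutant than in WT cells on both days. The split of reads between Cryab and Hspb2, whose exons overlap, is uncertain.

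At d0 most of these genes ranked the libraries of a group alike. Over all genes, too, libraries of a group differed more at d0 than at d4. The chi-square per degree of freedom between 2 libraries, a measure of spread beyond counting error, was 11.0 to 21.3 at d0 against 3.21 to 6.38 at d4. Whether the ranking is particular to these genes was not tested. Mutant replicate 1 at d0 was the lowest of its group for 7 of the 8 genes, and WT replicate 1 at d0 the highest of its group for 6 of the 8. Mutant replicate 3 at d4 was the highest of its group for 6 of the 8. The part of these libraries in the d0 differences was not tested, beyond leaving out each in turn.

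Partners of these chaperones were counted for the same comparisons. The shares over all genes tested were 5.98% lower and 1.76% higher at d4 (limma). At d0 they were 9.21% lower and 3.03% higher (edgeR). Of 12 autophagy partners of BAG3, 0 were higher and 1 lower in mutant cells at d4 by limma, Synpo2 (log2 fold change -1.34), the scaffold that BAG3 binds at the Z-disc. Map1lc3a, an autophagosome protein, had 0.76 and Hspa8, which encodes HSC70, 0.33, both under the fold threshold. At d0, 0 of 12 were higher and 2 lower by edgeR, among them Hspa1b (-1.18), an inducible HSP70 gene. Of 19 heat shock factors and cytosolic chaperones, 1 was lower at d4, Dnajb5 (-1.34), and 0 were higher on either day. At d0, 2 of them were lower, the same 2 genes as among the autophagy partners. Hsp90ab1 had 0.04 at d4 and 0.20 at d0. Of the 5 other BAG genes, 1 was lower at d4, Bag2 (-1.07), and 0 differed at d0. The 3 other small heat shock genes (Cryaa, Hspb9 and Odf1) were too low to test.

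Clients and muscle chaperones showed more differences. Of 15 muscle chaperone, filament and Z-disc genes, 9 were lower and 0 higher in mutant cells at d4, against 5.98% lower and 1.76% higher over all genes tested. Of the lower ones, Actn2, Myot and Myoz1 passed the filter on low values through WT libraries alone, and could not have been called higher. Log2 fold changes were -5.38 for Actn2, the Z-disc actinin, -3.59 for Unc45b, a myosin chaperone, and -2.07 for Smyd1, which works with it. Des, the muscle intermediate filament bound by alphaB-crystallin, had -0.34 and Vim 0.22 at d4, both under the fold threshold. At d0, 4 of 13 tested were lower and 1, Pdlim3, was higher (1.06), against 9.21% lower and 3.03% higher over all genes tested. Among the lower ones, Actn2 and Unc45b passed the filter at d0 through WT libraries alone.

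Markers of muscle differentiation moved with the genotype as well. Of 22 such genes, 21 of 21 tested were lower in mutant cells at d4 (median log2 fold change -2.98) and 19 of 20 tested at d0 (median -3.17). Some of them, among them Myh4 and Myh8 on both days, passed the filter on low values through WT libraries alone. Such genes could not have been called higher. The shares lower over all genes tested were 5.98% at d4 and 9.21% at d0. The summed level of the 22 genes was 2851 to 3098 FPKM in mutant cells at d4 against 15171 to 16029 FPKM in WT cells. At d0 it was 28.0 to 31.6 FPKM in mutant cells against 199 to 280 FPKM in WT cells. In the interaction 3 of 21 were lower and 5 higher, against 7.95% lower and 8.68% higher over all genes tested. Of the 9 myoblast identity genes, 1 was higher (Myf5, 1.32) and 2 lower (Pax7 and Ncam1) at d4. At d0, 2 were lower (Pax7, -8.77, and Vcam1, -1.06). Pax7 passed the filter on low values through WT libraries alone on both days. The part of differentiation in the differences of the small heat shock genes was not tested.

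Markers of other cells that can express small heat shock genes were also read. Their counts stand beside shares over all genes of 5.98% lower and 1.76% higher at d4. At d0 these shares were 9.21% lower and 3.03% higher. Smooth muscle markers, 1 of 3 tested lower at d4 and 2 of 4 at d0, summed to 462 to 471 FPKM in mutant cells at d4 against 824 to 870 FPKM in WT cells. At d0 they summed to 208 to 253 FPKM in mutant cells against 450 to 610 FPKM in WT cells. Acta2 carried most of these sums, with 433 against 809 FPKM at d4 and 194 against 474 FPKM at d0. Myh11 averaged at most 0.0234 FPKM in any group. At d0 Actg2 was lower in mutant cells (2.40 against 32.9 FPKM). Smtn (33.7 against 22.7 FPKM) and Cnn1 (1.63 against 1.12 FPKM) had higher means there, not past both thresholds. Fibroblast markers, 1 of 4 lower at d4 and 3 of 3 at d0, summed to 49.1 to 51.6 FPKM in mutant cells at d4 against 133 to 137 FPKM in WT cells, whereas at d0 they summed to 47.8 to 55.9 FPKM in mutant cells at d0 against 171 to 189 FPKM in WT cells. Col1a1 (1.65 against 50.4 FPKM at d4) and Col1a2 (39.2 against 77.1 FPKM) together carried most of these sums. Dpt (8.18 against 6.16 FPKM) and Pdgfra (1.10 against 1.41 FPKM) were not past both thresholds at d4. Thy1 was at 0 or unlisted in every group but WT d4. Cardiomyocyte markers, with Nppa at 0 or unlisted in all groups, summed to 4.06 to 5.05 FPKM in mutant cells at d4 against 5.38 to 6.43 FPKM in WT cells, with 1 of 3 lower. At d0, with 1 of 2 lower and 1 higher, they summed to 6.75 to 8.44 FPKM in mutant cells against 3.41 to 4.28 FPKM in WT cells. The lower ones, Myh6 at d4 and Tnni3 at d0, passed the filter on low values through WT libraries alone. Lens markers, with Cryaa at 0 or unlisted in every group, reached at most 0.549 FPKM summed and adipocyte markers at most 0.399 FPKM, and 0 of either could be tested. Blood markers summed to 43.1 to 47.7 FPKM in mutant cells at d0 against 6.90 to 8.74 FPKM in WT cells, with 1 of 2 higher. Hba-a1, a globin gene, carried most of this sum, with 41.3 ± 2.27 FPKM in mutant cells against 4.98 ± 0.97 FPKM in WT cells. Cd68 had 4.82 against 3.05 FPKM at d0, not past both thresholds. The leukocyte genes Ptprc and Spi1 averaged at most 0.0134 FPKM in mutant and 0.0119 FPKM in WT cells there. Beta cell markers, with Nkx6-1 at 0 or unlisted in all groups, summed to 6.23 to 15.2 FPKM in mutant cells at d0 against 0.0367 to 0.172 FPKM in WT cells, with 3 of 3 higher. These 3 passed the filter on low values through mutant libraries alone. Neuron markers summed to 4.75 to 5.19 FPKM in mutant cells at d0 against 3.95 to 4.19 FPKM in WT cells, and Snap25 was at 0 or unlisted there. Stmn2, not past both thresholds, carried this sum, with 4.85 against 4.05 FPKM. The 1 of 2 called higher, Syt1, had 0.0683 against 0.0110 FPKM, from 31 and 6 reads. At d4 the sums of blood, beta cell and neuron markers were at most 5.54 FPKM in mutant and 3.76 FPKM in WT cells. Of their 4 markers tested there, 0 passed both thresholds. The part of these markers in the results was not tested.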

How the data were processed

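RNA of 12 libraries, 3 per genotype and day, was sequenced as paired-end poly(A) libraries. The authors deposited FPKM of all 12 libraries and read counts per gene of 9, with mm10 and DESeq2 1.20.0 among the names in the submitters' processing notes. Aligner, counter and strand setting: not given in the sources used here. In the WT d4 table, 3 count columns equal those of the mutant d4 libraries for all 24787 genes and were not used. Reads of WT d4 were worked back from the deposited FPKM, and 100% of values came out whole within 0.01 reads. Genotypes at d4 were compared with limma 3.58.1 on log2(FPKM + 1), keeping genes that reached 0.5 FPKM in 3 libraries. Genotypes at d0, days and the interaction were compared with the quasi-likelihood test of edgeR 4.0.16 on counts or reads (R 4.3.3, TMM, filterByExpr). Thresholds were 0.05 for p, adjusted by Benjamini-Hochberg over all genes tested, and 1 for the size of the log2 fold change. Genes missing from the table of a day were left out of comparisons between days. All 8 genes are named in every comparison. From other lists, up to 3 called genes with the largest change and a mean of at least 1 FPKM, and up to 2 not called with the highest mean, could be named. The genes and lists were chosen with earlier results of these data known. Alternatives were RLE size factors, DESeq2 1.42.0, no filter, other pseudocounts, quantile normalization, all 12 libraries in 1 fit, a replicate block, no fold threshold, and leaving out each library. The steps were tested on simulated data in which all genes shared the same spread. The recovery of changed genes asked for was lower for limma at d4 than for the edgeR comparisons.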

Additional observations from a re-analysis of the deposited data

Results flagged for a closer look

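Hspb7 and Hspb8 differed between genotypes in how they moved from d0 to d4, by edgeR's interaction test over all 12 libraries. The mutant log2 fold change minus that of WT cells was -5.16 for Hspb7 and -2.12 for Hspb8. All 3 mutant libraries lay below all 3 WT libraries for both genes at d4, whereas at d0 the mutant libraries were above the WT libraries for Hspb8 and overlapped them for Hspb7.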

How the results depend on the processing

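The 4 genes lower in mutant cells at d4 were lower by both thresholds under all alternatives run. Leaving out 1 library gave 0 to 1 of the 8 genes higher at d0, with 0 without WT replicate 3 at d0, and 2 to 3 lower in the interaction. Over these fits the log2 fold change of Hspb7 at d0 ranged over -0.15 to 0.37, negative without mutant replicate 2 or WT replicate 1 (-0.024), and that of Hspb1 between days in mutant cells over -0.033 to 0.11, negative without mutant replicate 1 at d0. Neither passed a threshold in any of them. The cause was not tested. In the interaction Hspb3 passed both thresholds in DESeq2 (-5.86, adjusted p = 0.00311).

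Without the fold threshold, counts rose by construction. At d0, 2834 genes were then higher and 3330 lower, against 422 and 1282 with it. Of the 8 genes, 7 were tested at d0, with 5 higher and 1 lower. At d4, 3500 were higher and 3886 lower, against 233 and 792, with 3 of the 8 genes higher and 4 lower. Between days there were 5066 higher and 5281 lower in mutant cells, with 4 of the 7 tested genes higher and Hspb6 lower. In WT cells there were 4293 higher and 4678 lower, with all of the 8 genes but Hspb6 higher and Hspb6 lower. The interaction gave 3315 higher and 3520 lower, with 4 of the 8 lower. At d4 the pseudocount moved the counts of all genes, with 497 higher and 1193 lower at 0.1, and 70 and 369 at 5. Fits on reads, which also change the model, the filter and the genes tested, gave 721 and 1537 with edgeR on reads, 690 and 1760 with DESeq2 on reads, and 747 and 1638 with all 12 libraries in 1 edgeR fit.

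Deviations of same-numbered libraries from their group means had correlations of -0.521 to 0.155, and 0 of the 6 pairs of groups had each library correlating best with its own number. No pairing by number was therefore used in the main fits. Correlations of libraries with other numbers ran from -0.277 to 0.478, both between mutant and WT cells at d0. Deviations within a group of 3 are tied to each other, and whether libraries shared a culture or batch was not tested. With the replicate block, 408 genes were higher and 1249 lower at d0, 238 and 794 at d4, 2376 and 2357 between days in mutant cells, 1769 and 1834 in WT cells, and 1268 and 1175 in the interaction, and no call of the 8 genes changed. Depth limits Hspb3, with 1 to 14 reads in each group but WT d4, and Hspb7 at d0, with 54 and 59 reads.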

Other observations

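For each of the 8 genes, the genes with the most similar pattern over the 12 libraries were found among 11752 protein-coding genes, by the root mean square difference of log2(CPM + 1) levels centred per gene. This is a description of these libraries, which fall into 4 groups. Nearest to Hspb7 were Pgm5 (difference 0.341), with 2.05 ± 0.11 FPKM in mutant cells at d4 against 43.3 ± 1.19 FPKM in WT cells, and Filip1 (0.437). Nearest to Hspb3 were Fsd2 (0.167) and Sohlh2 (0.192), to Hspb2 Dusp27 (0.157) and Stac3 (0.186), a gene of excitation-contraction coupling, and to Hspb8 Aif1l (0.134) and Gldc (0.142). Adding 1 before the log2 shrinks differences of low genes: Gldc, with group means of 0.111 to 1.14 FPKM, was 3.69-fold higher in mutant than in WT cells at d0, where Hspb8 was 1.65-fold higher, and Pou4f1, with 0.297 to 1.66 FPKM, was 3.29-fold higher where Cryab was 2.14-fold higher (edgeR). Fsd2, Sohlh2 and Filip1 were also low outside WT cells at d4. Aif1l shared the turn of direction of Hspb8, with 31.3 ± 1.17 FPKM in mutant cells at d4 against 91.2 ± 3.67 FPKM in WT cells, whereas at d0 it had 31.7 ± 4.47 FPKM in mutant cells at d0 against 21.9 ± 3.36 FPKM in WT cells (SD, n = 3 each). Nearest to Cryab were Zfp697 (0.127) and Pou4f1 (0.153), to Hspb1 Urgcp (0.0641) and Ap1b1 (0.122), and to Hspb6 Alyref (0.0783) and Tmem120a (0.0846). Nearest to Bag3 were Gabarapl2 (0.0824), of the same family as the autophagosome protein LC3, and Slc39a3 (0.0851). Among the 8 genes themselves the closest pair was Hspb1 and Bag3, at 0.270, while Hspb8 and its partner Bag3 were not each other's nearest.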
